A study of Mus musculus with 5 samples.

Results

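The 66 genes described here encode the motors, tracks and motor cofactors of the microtubule system in the embryonic mouse lens. They were picked by gene symbol from the 12370 symbols of the deposited count table. The symbols cover kinesin heavy chains (Kif), kinesin light chains (Klc), alpha-, beta- and gamma-tubulins (Tuba, Tubb, Tubg), cytoplasmic dynein chains (Dync, Dynl) and dynactin subunits (Dctn). Of 72 symbols that matched, 6 kinesins of mitosis were left out by name (Kif11, Kif20a, Kif20b, Kif23, Kif2c and Kif4). The rule uses symbols and no expression values, although the set was proposed with earlier results of these data known. All 66 genes passed the filter on low counts.

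RNA of lenses at embryonic day 14 was sequenced in 3 control and 2 knockout libraries. The knockout lenses were Mlr10-Cre+/- with both N-myc alleles flanked by loxP, and the control lenses were Cre-negative. All groups carried the loxP-flanked N-myc alleles. The labels describe controls with and without loxP-flanked c-myc, and which of them a control library came from was not given in the sources used here. Mlr10-Cre is a transgene that expresses Cre recombinase in the lens. Only the knockout lenses carried it, so effects of the transgene and of the deletion cannot be told apart. Lenses of several animals were pooled before RNA purification, so p-values measure the spread between pools. In such bulk samples fewer cells of a type and less RNA per cell cannot be told apart.

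Microtubules are hollow polymers of alpha- and beta-tubulin dimers that start from rings of gamma-tubulin. Kinesins mostly carry cargo towards the plus ends of microtubules. Cytoplasmic dynein, with its partner complex dynactin, carries cargo towards the minus ends. Lens fibre cells elongate greatly during differentiation, hold long arrays of microtubules along their length and move membrane proteins and vesicles along them. Several tubulin and kinesin isoforms of the lens are better known from neurons, another strongly elongated cell type.

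The libraries held between 13162384 and 13746416 counts. Mycn, the targeted gene, stood at 162.0, 148.4 and 140.3 CPM (counts scaled to a common library size) in control replicates 1 to 3, and at 57.3 and 81.9 CPM in knockout replicates 1 and 2. The lens identity of the libraries was checked with Cryaa, the gene of alpha-A crystallin, which ranged from 41907.3 to 51878.8 CPM over the 5 libraries. On the principal component with most variance (64.6%), control scores ran from -19.4 to -16.7, and the scores of knockout replicates 1 and 2 were 43.5 and 10.5. Markers of mesenchyme (5 of 12 rose, 0 fell) and skeletal muscle (0 of 9 passed edgeR's test) were highest in sum in knockout replicate 1. The 12 mesenchyme genes summed to between 609.6 and 901.4 CPM in the controls, and to 2415.7 and 782.2 CPM in knockout replicates 1 and 2. The 9 muscle genes summed to between 16.7 and 63.8 CPM in the controls and to 430.0 and 21.6 CPM in the knockouts. Of 12 lens fibre markers 5 fell and 0 rose. Of 4 lens epithelium, 4 macrophage, 8 endothelial and 5 tested red blood cell markers 0 rose, and 1 each of the last 2 lists fell.

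Of the 66 genes, 8 rose and 7 fell in the knockout lenses (edgeR quasi-likelihood test, Benjamini-Hochberg adjusted p under 0.05 over 12035 genes). That is 22.7% of these genes, against 16.5% of all genes tested. The share was 12.1% for the higher genes (7.98% of all genes) and 10.6% for the lower genes (8.51% of all genes). The genes that rose were Tubb3, Kif26a, Kif13b, Kif26b, Dync1i1, Kif21b, Kif3c and Kif1c. The genes that fell were Dynlt3, Kif5c, Tubb4a, Dynll2, Kif21a, Dync1li1 and Kif1a. The 12 lens fibre markers had a mean log2 (CPM + 1) that differed from the control mean by -0.91 and -0.54 in knockout replicates 1 and 2 and by -0.23 to 0.14 in the controls, and the part of this in the genes that fell was not tested. The median log2 fold change of the 66 genes was 0.09, and that of all genes tested 0.00. In 35 of the 66 genes (53.0%) the CPM ranges of the groups did not overlap, as in 52.5% of all genes.

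**Figure D1:**
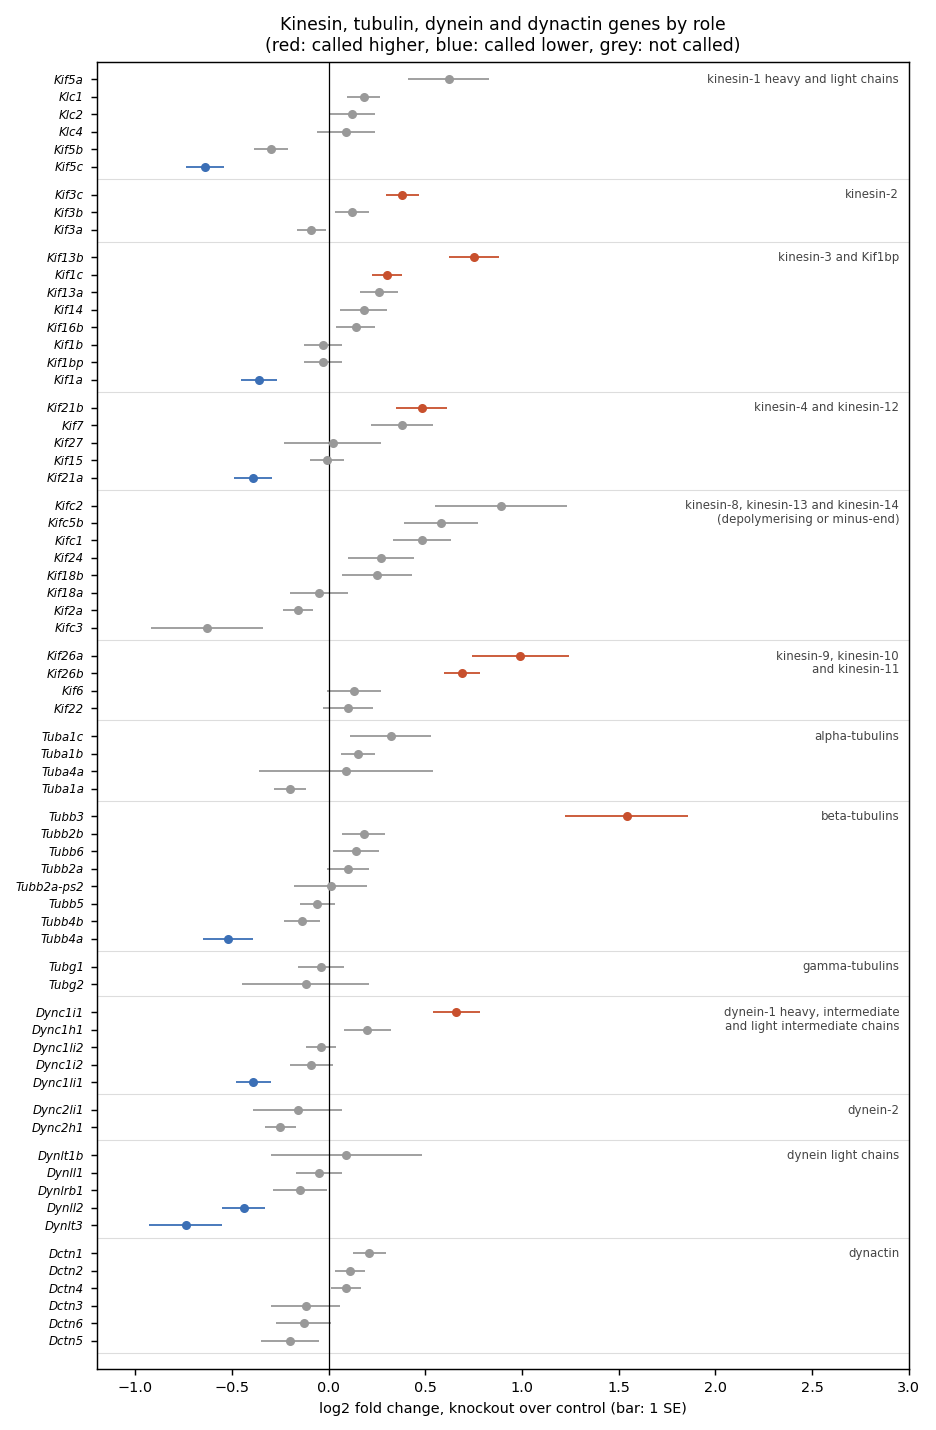
Log2 fold change (x axis, knockout over control, bars 1 SE) of the 66 genes, grouped by role on the y axis. The 8 genes called higher are red and the 7 called lower are blue, and most roles with more than 1 called gene hold calls in opposite directions.

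The calls depended on which libraries entered the fit. Without control replicate 2, 0 of the 66 genes passed (background 0.317%). In that fit 21 of them lay below 0.05 before adjustment, and the matching number for all genes is not given here. Before adjustment, the edgeR fit to all libraries placed 25 of the 66 genes below 0.05, and 4311 of all 12035 genes. Unadjusted counts given below for smaller sets were not tested against this background. Without control replicate 3, 4 of the 66 genes passed (background 1.98%), namely Dync1i1, Kif26a, Kif26b and Kif5c. Without knockout replicate 1, 3 passed (background 2.42%), namely Dync1i1, Kif26b and Tubb3. Without control replicate 1 and without knockout replicate 2 the numbers were 12 (background 16.0%) and 13 (background 22.5%). In each of these 5 fits the 15 called genes kept the sign of their fold change. As their CPM ranges did not overlap between the groups, leaving out 1 library could hardly have reversed a sign.

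Fold changes in these libraries followed the GC content of the transcripts. The rank correlation of the 2 measures (Spearman's rho) was 0.40 across the 66 genes and 0.46 across the tested genes with a known transcript, a description over genes that share the same 5 libraries. The median GC content was 53.8% for the 8 genes that rose, 48.4% for the 7 that fell and 49.7% for all genes tested. The median transcript length of these sets was 6.85, 2.60 and 3.48 kilobases. The correction that follows takes out both trends together, and their separate parts were not tested. After the trends of a library's counts with the length and GC of transcripts were taken out (GC and length correction), 10 of the 15 calls held and 11 of the 66 genes passed (background 9.95%). Kif1c, Kif21b, Kif26a, Kif3c and Dynlt3 then did not pass. Dctn4 was added (log2 fold change 0.33, edgeR adjusted p = 0.023).

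**Figure D2:**
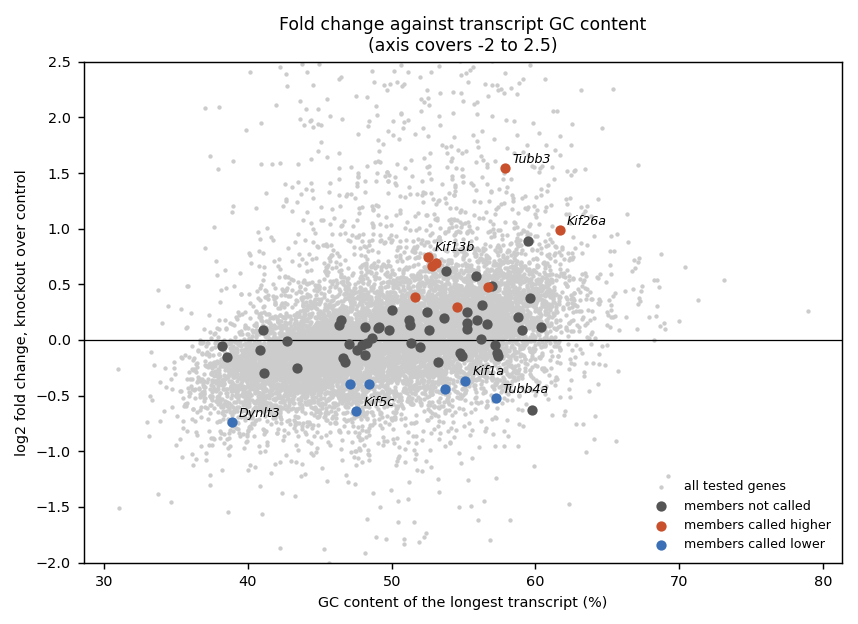
Log2 fold change (y axis, knockout over control, shown from -2 to 2.5, a range that a small number of genes exceed) against the GC content of the longest transcript of a gene (x axis, percent). Grey points are all tested genes, red and blue points the genes described here that were called higher and lower. Kif1a, Dynll2 and Tubb4a fell at a GC content above the median of all genes, while Dynlt3, Kif5c, Kif21a and Dync1li1 fell at one below it.

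The sequence just upstream of the listed starts of the genes was searched for CACGTG. This is the E-box that MYC proteins bind with Max, a motif that reads the same on both strands. RefSeq (GRCm38.p6) gave a start site for 48 of the 66 genes. Of these, 3 (6.25%) held CACGTG in the 250 bases before a listed start, against 10.2% of the tested genes with a listed start. They were Kif1a, Klc4 and Tubb5. Kif13b, Kif21b and Dynll2 were not searched. Of the called genes with a listed start, 0 of 6 that rose and 1 of 6 that fell (Kif1a) held it. The matching window of Kif1a lies inside the gene (chr1, 93015464 to 93101951, minus strand). The window at its upstream listed start (chr1:93101875-93102124) held 0 matches. A match is a description of letters, not of binding. The windows below are shown 5′ to 3′ in the direction of transcription, with CACGTG in capitals: those of the matching genes Kif1a (at the downstream one of 2 listed starts) and Tubb5, and, with no match, those of Kif5c and Kif26b, the genes with the lowest adjusted p-values among those that fell and rose.
Kif1a (chr1:93082481-93082730, minus strand): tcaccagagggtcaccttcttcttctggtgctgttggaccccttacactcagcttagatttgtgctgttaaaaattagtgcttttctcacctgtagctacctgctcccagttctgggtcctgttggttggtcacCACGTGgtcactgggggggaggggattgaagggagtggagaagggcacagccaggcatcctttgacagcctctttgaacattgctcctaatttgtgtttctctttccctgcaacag
Tubb5 (chr17:35838302-35838551, minus strand): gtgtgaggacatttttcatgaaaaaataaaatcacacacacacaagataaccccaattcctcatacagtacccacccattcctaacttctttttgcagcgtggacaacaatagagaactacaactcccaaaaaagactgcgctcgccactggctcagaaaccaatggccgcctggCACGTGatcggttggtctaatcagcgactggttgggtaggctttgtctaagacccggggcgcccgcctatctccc
Kif5c (chr2:49619036-49619285, plus strand): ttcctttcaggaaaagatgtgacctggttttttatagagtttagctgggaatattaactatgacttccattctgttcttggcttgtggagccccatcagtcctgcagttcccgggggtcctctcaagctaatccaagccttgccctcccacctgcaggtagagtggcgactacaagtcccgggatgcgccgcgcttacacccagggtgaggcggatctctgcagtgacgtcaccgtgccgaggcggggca
Kif26b (chr1:178528875-178529124, plus strand): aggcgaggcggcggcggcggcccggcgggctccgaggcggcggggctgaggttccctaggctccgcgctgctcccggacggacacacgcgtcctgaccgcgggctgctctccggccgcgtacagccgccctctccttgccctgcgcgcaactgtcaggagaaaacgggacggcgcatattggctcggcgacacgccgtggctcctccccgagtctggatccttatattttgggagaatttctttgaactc
The windows differed in base composition. That of Kif26b held 68.4% G or C and 32 CG pairs, that of Kif5c 55.2% and 11, that of Tubb5 49.2% and 10, and that of Kif1a 50.8% and 1.

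Kinesin-1 is the general plus-end motor for vesicles, mitochondria and other cargo, built of a pair of heavy chains (Kif5a, Kif5b or Kif5c) and a pair of light chains. Kif5c fell, Kif5b and Kif5a did not pass the test, and 0 of 3 light chain genes passed (0 at an unadjusted edgeR p under 0.05, and 0 with DESeq2). Kif5c stood at 257.6, 234.0 and 238.9 CPM in the controls against 141.8 and 171.0 CPM in the knockouts. Both knockout libraries lay below every control library, and Kif5c was 1.56-fold lower (log2 -0.64, SE 0.10, edgeR adjusted p = 0.013). After GC and length correction the log2 value was -0.72 (edgeR adjusted p = 0.011). Kif5b, the widely expressed heavy chain, stood at 302.6, 296.8 and 327.9 CPM against 240.7 and 261.8 CPM. Its ranges did not overlap, but its log2 value of -0.30 (SE 0.088) missed the threshold (edgeR adjusted p = 0.053) and passed with DESeq2 (adjusted p = 0.0087). After GC and length correction the log2 value of Kif5b was -0.12 (edgeR adjusted p = 0.25). Kif5a, the isoform best known from neurons, was low, at 5.41, 7.89 and 6.22 CPM against 9.23 and 10.8 CPM. Its log2 fold change was 0.62 (SE 0.21, edgeR adjusted p = 0.073), opposite in sign to that of Kif5b and Kif5c. It passed when library totals alone set the scaling (edgeR adjusted p = 0.048). After GC and length correction its log2 value was 0.32 (edgeR adjusted p = 0.41). Kif5a was higher in knockout replicate 2 than in replicate 1, as were the neuron markers in sum, and their part in its value was not tested.

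Per kilobase of the longest transcript, Kif5c made up 42.4%, 40.3% and 38.6% of the 3 heavy chain genes' summed level in the controls against 33.3% and 35.6% in the knockouts. Kif5b made up 56.6% to 60.3% in the controls against 64.3% and 62.0% in the knockouts. Kif5a lay between 0.970% and 1.48% in the controls against 2.36% and 2.44% in the knockouts. The shares of Kif5b and Kif5a were thus larger and that of Kif5c smaller in both knockout libraries. Among the light chains, which link kinesin-1 to cargo, Klc1 was the most abundant per length (77.6% to 81.1% of the 3 light chain genes in the controls, 81.5% and 79.3% in the knockouts). Klc1 stood at 208.4, 214.0 and 196.8 CPM against 244.9 and 223.4 CPM, with no overlap of the groups (log2 0.18, SE 0.084, edgeR adjusted p = 0.16). Klc2 was at 43.8 ± 6.20 CPM (SD, n = 3) and 47.5 ± 1.44 CPM (SD, n = 2), and Klc4 at 16.8 ± 1.38 and 17.9 ± 2.82 CPM.

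Kinesin-2 drives transport along cilia and axons with Kif3a paired to Kif3b or Kif3c. Kif3c was at 43.0, 40.1 and 40.8 CPM in the controls against 53.9 and 53.7 CPM in the knockouts. It was 1.30-fold higher (log2 0.38, SE 0.085, edgeR adjusted p = 0.028), with knockout values that lay very close together and above every control. The exons of Kif3c overlap 2617 bases of 1110002L01Rik, a gene on the opposite strand, and without a stated strand setting reads of the pair cannot be told apart. 1110002L01Rik itself fell (33.9, 32.6 and 31.3 CPM against 20.2 and 25.0 CPM, log2 -0.53, edgeR adjusted p = 0.030). After GC and length correction Kif3c had a log2 value of 0.15 and did not pass (edgeR adjusted p = 0.26). Kif3a, the shared subunit, was at 161.7, 169.7 and 168.9 CPM against 158.9 and 154.5 CPM, and Kif3b at 45.9, 45.5 and 42.2 CPM against 48.2 and 48.6 CPM. Neither passed, although the groups did not overlap in either gene.

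Kinesin-3 motors carry synaptic vesicle precursors, dense-core vesicles and endosomes over long distances. Kif1a was the most abundant per length of the kinesin genes described here (120.1 CPM per kilobase in the controls), followed by Klc1 among the kinesin-1 chains (82.4) and Kif1b (69.0). It stood at 1027.4, 993.6 and 936.0 CPM in the controls against 738.6 and 792.2 CPM in the knockouts. The groups did not overlap, and Kif1a was 1.29-fold lower (log2 -0.36, SE 0.093, edgeR adjusted p = 0.038). It did not pass when library totals alone set the scaling (log2 -0.28, edgeR adjusted p = 0.056). After GC and length correction its log2 value was -0.74 (edgeR adjusted p = 0.011), further from 0 than without this step. Kif1b, a mitochondrial and vesicle motor, was at 776.2, 673.4 and 668.8 CPM against 677.7 and 709.5 CPM, so its ranges overlapped (log2 -0.03, SE 0.10, edgeR adjusted p = 0.88).

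Kif1c, which carries integrins and dense-core vesicles, rose 1.23-fold from 104.3, 94.9 and 100 CPM to 123.4 and 122.0 CPM (log2 0.30, SE 0.078, edgeR adjusted p = 0.040). Its log2 value was -0.04 after GC and length correction (edgeR adjusted p = 0.76), so its direction rests on the fit without that step. Kif13b, a kinesin that binds the polarity protein Dlg1 and carries phosphoinositides, stood at 21.4, 20.3 and 19.3 CPM in the controls against 38.0 and 30.3 CPM in the knockouts. It was 1.68-fold higher (log2 0.75, SE 0.13, edgeR adjusted p = 0.015) and remained called after GC and length correction (log2 0.44, edgeR adjusted p = 0.034). The related Kif13a, a carrier of the mannose 6-phosphate receptor, was at 140.2, 116.4 and 116.9 CPM against 153.0 and 144.1 CPM and did not pass (log2 0.26, SE 0.10, edgeR adjusted p = 0.11). Kif14, a kinesin-3 of cytokinesis, Kif16b, an endosome motor, and Kif1bp, which binds kinesins and is no motor itself, had log2 fold changes of 0.18, 0.14 and -0.03 and did not pass.

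The kinesin-4 genes Kif21a and Kif21b, whose products slow the growth of microtubules, were called in opposite directions. Kif21a was at 148.8, 136.2 and 130.1 CPM in the controls against 97.5 and 113.0 CPM in the knockouts. It was 1.31-fold lower (log2 -0.39, SE 0.099, edgeR adjusted p = 0.036), with a log2 value of -0.45 after GC and length correction (edgeR adjusted p = 0.031). Kif21b was at 23.9, 25.2 and 21.6 CPM against 36.2 and 29.5 CPM, 1.39-fold higher (log2 0.48, SE 0.13, edgeR adjusted p = 0.042). Its log2 value was 0.01 after this correction (edgeR adjusted p = 0.98), so the call did not hold there. Per length Kif21b made up 10.1% to 11.4% of the pair in the controls against 20.5% and 15.4% in knockout replicates 1 and 2. Kif7, a kinesin of the cilium tip in Hedgehog signalling, was at 10.9, 11.5 and 10 CPM against 15.6 and 12.5 CPM (log2 0.38, SE 0.16, edgeR adjusted p = 0.13). The spindle motor Kif15 was at 71.4, 69.7 and 63.7 CPM against 64.9 and 70.4 CPM, with overlapping groups and a log2 fold change of -0.01. Kif27 had a log2 fold change of 0.02.

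Of 8 genes for kinesins that shorten microtubules or move towards minus ends, 0 passed edgeR's test, and 3 had an unadjusted edgeR p under 0.05 (Kifc1, Kifc2 and Kifc5b). DESeq2 and limma-voom called 0 of the 8. Kif2a, a kinesin-13 that depolymerises microtubule ends, was the most abundant, at 123.6, 114.7 and 119.1 CPM in the controls against 109.1 and 104.5 CPM in the knockouts (log2 -0.16, SE 0.078, edgeR adjusted p = 0.18). Its log2 value was 0.14 after GC and length correction, and its exons overlap 1229 bases of Dimt1 on the other strand. Kifc1, a spindle motor, was at 11.1, 10.5 and 10.9 CPM against 16.5 and 13.9 CPM, and its near-copy Kifc5b at 4.86, 5.39 and 4.78 CPM against 7.09 and 7.89 CPM. Both lay above all controls in both knockout libraries, with edgeR adjusted p-values of 0.057 and 0.070. Both passed when library totals alone set the scaling. These genes share sequence: 45.8% of the 50-base windows of the longest Kifc1 transcript also occur in Kifc5b, so the split of reads between them is uncertain. Kifc3, a minus-end motor of cell junctions, was at 6.27, 9.03 and 8.65 CPM against 6.58 and 3.73 CPM (log2 -0.63, SE 0.29, edgeR adjusted p = 0.15). Kif18b, a kinesin-8 of the spindle, was at 23.6, 17.4 and 16.4 CPM against 24.3 and 21.2 CPM, and Kif18a, Kif18b and Kif24 had log2 fold changes between -0.05 and 0.27. Kifc2 was at 2.52 ± 0.848 CPM (SD, n = 3) and 4.69 ± 1.26 CPM (SD, n = 2).

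Of the kinesin-9, kinesin-10 and kinesin-11 genes, both kinesin-11 genes rose, and Kif6 and the chromosome motor Kif22 did not pass. Kif22 was at 21.3, 20.4 and 19.7 CPM against 19.6 and 24.5 CPM, and Kif6 at 15.5, 16.0 and 15.1 CPM against 18.8 and 15.4 CPM, with overlapping ranges. Kinesin-11 proteins bind microtubules but lack the usual motor activity, and Kif26a and Kif26b are known from growth factor and Wnt5a signalling. Kif26b (chromosome 1, 178529125 to 178939200, GRCm38) was at 89.7, 80.1 and 75.4 CPM in the controls against 136.9 and 127.5 CPM in the knockouts. Both knockout libraries exceeded every control by a margin larger than the range of the controls, with a 1.62-fold rise (log2 0.69, SE 0.094, edgeR adjusted p = 0.0097). Its exons overlap 909 bases of Gm16564 on the other strand. Kif26b passed in 11 of 13 alternatives (edgeR, DESeq2 or limma adjusted p from 5.3e-08 to 0.075). Its log2 value was 0.29 after GC and length correction (edgeR adjusted p = 0.043) and 0.64 without knockout replicate 1 (0.034). Kif26a was low, at 5.72, 5.08 and 8.73 CPM against 14.8 and 11 CPM. It was 1.98-fold higher (log2 0.99, SE 0.25, edgeR adjusted p = 0.039), and its log2 value was 0.36 after this correction (edgeR adjusted p = 0.41). The expression of mesenchyme markers was highest in knockout replicate 1 (2415.7 CPM in sum), where 6 of the 8 genes that rose were also highest (Kif26a, Kif26b, Kif13b, Kif21b, Kif3c and Kif1c), and the part of mesenchyme in their values was not tested. Without that library, knockout replicate 2 alone gave Kif26a, Kif13b and Kif21b log2 values of 0.76, 0.58 and 0.33, against 0.99, 0.75 and 0.48 with all libraries. Kif26b, Kif3c and Kif1c then had log2 values of 0.64, 0.38 and 0.29, against 0.69, 0.38 and 0.30. Kif3c (53.9 and 53.7 CPM) and Kif1c (123.4 and 122.0 CPM) were nearly equal in knockout replicates 1 and 2.

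**Figure D3:**
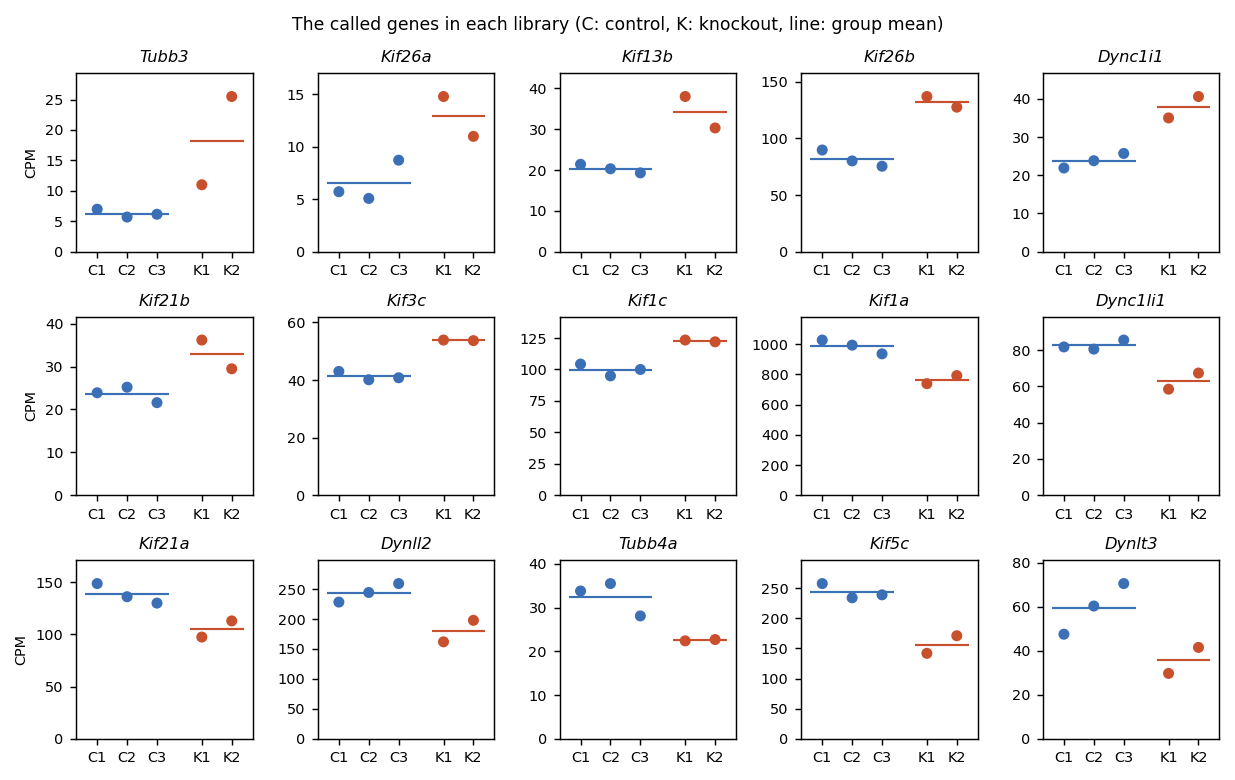
CPM (y axes, each from 0) of the 15 called genes in control replicates 1 to 3 (C1 to C3, blue) and knockout replicates 1 and 2 (K1, K2, red), ordered by fold change, with lines at the group means. In all 15 panels the knockout points lie on 1 side of the control points, and Tubb3 has the widest gap between the knockout libraries relative to its level (11 and 25.5 CPM).

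Of 4 alpha-tubulin genes, 0 passed edgeR's test, and Tuba1a alone had an unadjusted edgeR p under 0.05. Tuba1a, the main alpha-tubulin of developing neurons, made up 88.5% to 89.1% of alpha-tubulin per length in the controls against 85.3% and 86.6% in the knockouts. It stood at 500.7, 515.2 and 492.9 CPM against 429.8 and 445.8 CPM, with no overlap of the groups. The log2 value of -0.20 (SE 0.082) did not pass (edgeR adjusted p = 0.12) but did with DESeq2 (adjusted p = 0.035). Tuba1b was at 55.5, 52.4 and 55.0 CPM against 63.6 and 57.1 CPM (log2 0.15, edgeR adjusted p = 0.25). Tuba1c was at 7.37, 8.04 and 5.46 CPM against 8.30 and 9.04 CPM, and Tuba4a was below 3 CPM in every library. The exons of Tuba4a overlap 1379 bases of Stk16 on the other strand. The alpha-tubulin genes Tuba1a, Tuba1b and Tuba1c are near-copies, with 72.9% of the 50-base windows of Tuba1a found in another gene, so these levels depend on how shared reads were counted.

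Of 8 beta-tubulin genes, a pseudogene included, Tubb3 rose and Tubb4a fell. Tubb5, the ubiquitous isotype, held 63.9% to 64.9% of beta-tubulin per length in the controls against 63.8% and 63.1% in the knockouts. It was at 1081.1, 1129.8 and 1029.8 CPM against 1003.4 and 1065.6 CPM, with overlapping ranges (log2 -0.06, SE 0.091, edgeR adjusted p = 0.65). Tubb4b, the next most abundant isotype, was at 203.0, 204.5 and 186.9 CPM against 166.6 and 192.7 CPM (log2 -0.14, SE 0.093, edgeR adjusted p = 0.31), and 50.9% of its 50-base windows occur in other genes. Tubb4a, an isotype best known from oligodendrocytes and brain, was at 33.8, 35.5 and 28.1 CPM in the controls against 22.4 and 22.7 CPM in the knockouts. It was 1.44-fold lower (log2 -0.52, SE 0.13, edgeR adjusted p = 0.034), with both knockout libraries below every control. Tubb4a did not pass without control replicate 1, 2 or 3 (edgeR adjusted p = 0.069, 0.13 and 0.053). Without knockout replicates 1 and 2 in turn its log2 value was -0.51 and -0.54. After GC and length correction its log2 value was -0.71 (edgeR adjusted p = 0.013). Tubb2b was at 31.0, 37.3 and 36.7 CPM against 39.6 and 39.4 CPM. Tubb2a, Tubb2b and Tubb6 had log2 fold changes of 0.10, 0.18 and 0.14 and did not pass, and 45.6% of the windows of Tubb2a are shared with Tubb2b. The gamma-tubulin genes, which nucleate microtubules, did not pass either (0 of 2 at an unadjusted edgeR p under 0.05, and 0 with DESeq2). Tubg1 was at 27.7, 28.8 and 25.0 CPM against 24.5 and 28.2 CPM, and Tubg2 at 2.19, 2.05 and 1.59 CPM against 1.93 and 1.65 CPM.

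Tubb3, the class III beta-tubulin that marks young neurons, had the largest fold change of the 66 genes. It stood at 6.98, 5.69 and 6.15 CPM in the controls against 11 and 25.5 CPM in knockout replicates 1 and 2. It was 2.91-fold higher (log2 1.54, SE 0.32, edgeR adjusted p = 0.023), and the ratio of knockout SD to knockout mean was the highest among the 15 called genes. The log2 value was 0.81 without knockout replicate 2 (edgeR adjusted p = 0.028) and 2.03 without knockout replicate 1 (edgeR adjusted p = 0.0015). Most markers of neurons and of retinal progenitors moved with it. Of 11 neuron markers in the table, 7 rose and 0 fell. The 11 neuron markers summed to 25.6 to 34.7 CPM in the controls and to 41.7 and 73.0 CPM in knockout replicates 1 and 2. None of them was at 0 in all libraries. Another 5 neuron markers (Isl1, Pou4f1, Scg3, Snap25 and Syt1) were not analysed here. Of 11 retinal progenitor markers, 7 rose and 0 fell, from 74.5 to 78.0 CPM in sum to 119.4 and 236.1 CPM. The part of retinal or neuronal RNA in the rise of Tubb3 was not tested.

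**Figure D4:**
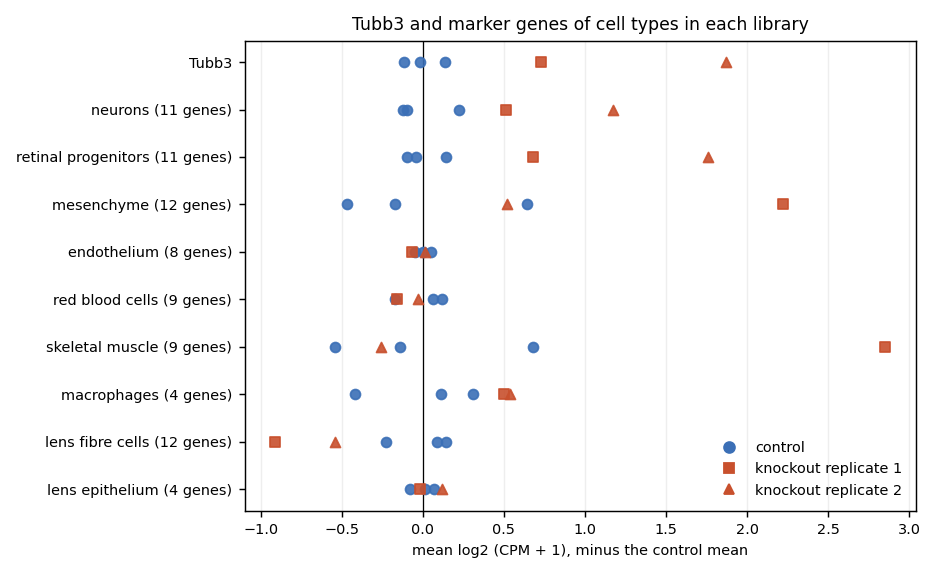
Tubb3 and the marker genes of 9 cell types (y axis) as mean log2 (CPM + 1) minus the control mean (x axis), with blue points for controls and red squares and triangles for knockout replicates 1 and 2. Tubb3, the neuron genes and the retinal progenitor genes lie higher in replicate 2 than in replicate 1, whereas the mesenchyme and muscle genes lie highest in replicate 1.

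Dynein-1 is the minus-end motor of the cytoplasm. Its heavy chain Dync1h1 holds the motor, and the intermediate and light intermediate chains bind dynactin and adaptors. Dync1h1 stood at 1197.2, 969.3 and 977.8 CPM against 1259.0 and 1143.1 CPM, and the ranges overlapped (log2 0.20, SE 0.12, edgeR adjusted p = 0.27). Its log2 value was -0.23 after GC and length correction (edgeR adjusted p = 0.10). Dync1i1, the intermediate chain best known from neurons, rose from 21.9, 23.8 and 25.7 CPM to 35.0 and 40.6 CPM. Both knockout libraries lay above every control, with a 1.59-fold rise (log2 0.66, SE 0.12, edgeR adjusted p = 0.016). It passed in 12 of 13 alternatives (edgeR, DESeq2 or limma adjusted p from 0.00051 to 0.071), and the exception was the fit without control replicate 2. The log2 value was 0.60 after GC and length correction and 0.77 without knockout replicate 1. Dync1i1 was higher in knockout replicate 2 than in replicate 1, as were the neuron markers in sum (73.0 and 41.7 CPM), and their part in its rise was not tested. The widely expressed Dync1i2 was at 95.0 ± 11.1 CPM (SD, n = 3) and 89.1 ± 3.04 CPM (SD, n = 2) and did not pass. Per length Dync1i1 made up 30.6%, 27.5% and 30.4% of the pair in the controls against 40.1% and 42.5% in the knockouts.

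The light intermediate chain Dync1li1 fell from 81.8, 80.6 and 85.6 CPM to 58.5 and 67.4 CPM. It was 1.31-fold lower, with both knockout libraries below every control (log2 -0.39, SE 0.090, edgeR adjusted p = 0.030). Its paralogue Dync1li2 was at 137.9, 141.8 and 145.9 CPM against 134.3 and 142.4 CPM (log2 -0.04, SE 0.077, edgeR adjusted p = 0.76). Of 5 genes for dynein light chains, small subunits that hold the complex together, 2 fell and 3 did not pass. Dynll2 was at 228.3, 244.3 and 259.2 CPM in the controls against 161.9 and 197.8 CPM in the knockouts, 1.36-fold lower (log2 -0.44, SE 0.11, edgeR adjusted p = 0.035). Dynlt3 was at 47.5, 60.3 and 70.5 CPM against 29.7 and 41.5 CPM, 1.67-fold lower (log2 -0.74, SE 0.19, edgeR adjusted p = 0.040). Its ratio of control SD to control mean was the highest of the genes that fell, and its log2 value was -0.31 after GC and length correction (edgeR adjusted p = 0.16). Dynll1, which is nearly the same protein as Dynll2, was at 92.0, 118.4 and 103.2 CPM against 94.5 and 107.6 CPM and did not pass. Dynlrb1 was at 24.4, 32.5 and 29.0 CPM against 24.7 and 27.0 CPM. Dynlt1b was at 1.71 ± 0.514 CPM (SD, n = 3) and 1.83 ± 0.358 CPM (SD, n = 2), and 83.2% of its windows occur in other genes.

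Neither dynein-2, the motor that returns cargo from the tip of the cilium, nor dynactin held a called gene. Dync2h1, the dynein-2 heavy chain, was at 343.5, 336.1 and 363.1 CPM against 288.1 and 294.8 CPM. Its groups did not overlap, and its log2 value of -0.25 (SE 0.082, edgeR adjusted p = 0.066) passed with DESeq2 (adjusted p = 0.012). Dync2li1, its light intermediate chain, was at 7.29, 11.8 and 9.71 CPM against 9.45 and 7.75 CPM. Of the 6 dynactin genes 0 passed with edgeR, DESeq2 or limma-voom before GC and length correction, and 1 (Dctn1) had an unadjusted edgeR p under 0.05. After that correction Dctn4 passed (log2 0.33, edgeR adjusted p = 0.023). Dctn1, the subunit that binds microtubules, was at 183.6, 169.5 and 163.3 CPM against 205.3 and 192.2 CPM (log2 0.21, SE 0.084, edgeR adjusted p = 0.12). Its log2 value was -0.21 after GC and length correction. Dctn2, which holds the shoulder of the complex, was at 86.7 ± 3.04 CPM (SD, n = 3) and 93.8 ± 2.54 CPM (SD, n = 2). Dctn4 was at 94.2, 87.6 and 93.0 CPM against 94.8 and 99.8 CPM, and Dctn5, of the pointed end, at 34.2 ± 5.98 CPM and 29.9 ± 1.98 CPM. Dctn3 and Dctn6 were below 25 CPM in every library, with log2 fold changes of -0.12 and -0.13.

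Ratios of related genes within a library do not depend on the scaling between libraries, but they do depend on GC and length correction, which is not applied in them. After that correction Kif21b and Kif21a, for example, had log2 fold changes of 0.01 and -0.45. The pairs given here were chosen after the values of their genes were seen, so the ratios are descriptions. The log2 ratio of Kif5a to Kif5c was -5.57, -4.89 and -5.26 in the controls against -3.94 and -3.99 in the knockouts. That of Kif21b to Kif21a was -2.64, -2.43 and -2.59 against -1.43 and -1.94. That of Dync1i1 to Dync1i2 was -1.92, -2.13 and -1.93 against -1.31 and -1.17. In each pair the knockout libraries lay above all controls, by 1.28, 0.87 and 0.75 between the group means. The part of neuronal RNA in the ratios of Kif5a and Dync1i1 was not tested. The ratios of Dync1li1 to Dync1li2 and of Kif1a to Kif1b were lower in both knockout libraries, by -0.36 and -0.34. The ratio of Dynll2 to Dynll1 differed by -0.40 between the group means.

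**Figure D5:**
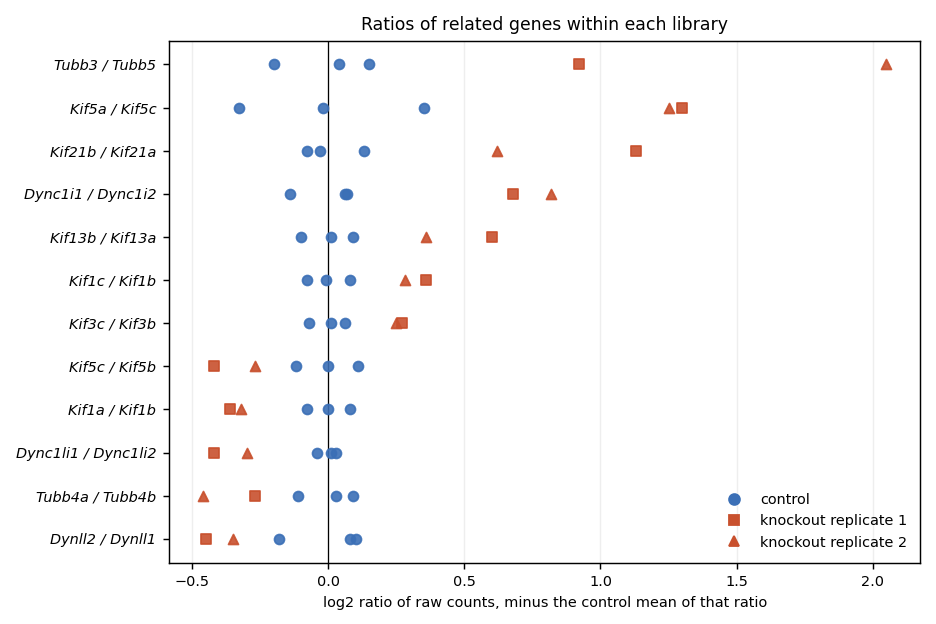
Log2 ratio of the raw counts of 2 related genes within each library, minus the control mean of that ratio (x axis), for 12 pairs (y axis). Blue points are controls, red squares and triangles knockout replicates 1 and 2. The Tubb3 to Tubb5 ratio has the widest gap between the knockout libraries, and the Kif3c to Kif3b ratio a narrow one.

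Another 7 lists of microtubule genes were read from the same fit. Of their 154 tested genes, 9 rose and 9 fell, with a median log2 fold change of -0.01 (7.98% and 8.51% of all genes tested rose and fell). After GC and length correction 6 rose and 7 fell (background 9.95%), and corrected values of single list genes are not given here. Among the called list genes with values below, transcript GC content was 35.5% (Vbp1) to 47.5% (Map7d2) in those that fell. It was 46.3% (Dclk1) to 62.2% (Vash1) in those that rose, against a median of 49.7% for all genes tested. The part of GC content in these calls was not tested. Among 33 genes for proteins that bind, cap or sever microtubules, 5 rose (Map1a, Clip2, Dcx, Dclk1 and Dclk2) and 2 fell (Map7d2 and Map9), with a median of 0.10. Map1a, which cross-links microtubules, went from 87.5, 75.9 and 71.6 CPM to 138.9 and 133.8 CPM (log2 0.80, SE 0.098, edgeR adjusted p = 0.0084). Dclk1, a doublecortin-like kinase, went from 2.98, 5.16 and 3.87 CPM to 29.1 and 11.6 CPM, and Dclk2 from 5.33, 3.49 and 5.24 CPM to 12.3 and 11.1 CPM. Dclk1 was highest in knockout replicate 1, where the mesenchyme markers were also highest, and their part in its rise was not tested. Map7d2, a relative of the kinesin-1 cofactor Map7, fell from 21.2, 20.0 and 24.5 CPM to 10.7 and 14 CPM (log2 -0.83, SE 0.17, edgeR adjusted p = 0.021).

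Among 14 tubulin folding cofactors and prefoldin subunits, which help tubulin to fold and dimerise, 1 fell and 0 rose. The median log2 fold change was -0.23, and 1 of the 14 genes had a value above 0, against 6043 of all 12035 genes tested. These values are without GC and length correction, and the part of GC content and length in them was not tested. Vbp1, a prefoldin subunit, fell from 30.1, 33.5 and 35.5 CPM to 15.2 and 24.7 CPM (log2 -0.73, SE 0.19, edgeR adjusted p = 0.042). Of 19 genes for enzymes that modify tubulin, 2 rose. They were Agbl5, a deglutamylase (27.0 ± 1.62 to 40.0 ± 0.523 CPM), and Vash1, which removes the terminal tyrosine (65.2 ± 5.81 to 91.2 ± 13.5 CPM). Of 22 genes for microtubule nucleation and minus ends, Mzt1, a small part of the gamma-tubulin ring, and Haus1, an augmin subunit, fell, by 0.73 and 0.75 on the log2 scale.

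Of 20 genes for regulators and adaptors of dynein and dynactin, 2 rose and 3 fell. Rab11fip3, an endosomal dynein adaptor, rose from 39.9 ± 4.58 to 59.6 ± 7.96 CPM, and Bicdl1, another adaptor, from 1.17 ± 0.369 to 4.55 ± 0.869 CPM. Actr10, which caps the pointed end of the dynactin filament, fell from 59.7 ± 3.49 to 46.9 ± 1.70 CPM. The capping protein subunit Capza2 fell from 78.8 ± 7.44 to 57.9 ± 2.12 CPM, and Capza1 also fell. Of 20 kinesin adaptor and cargo linker genes 0 passed with edgeR (6 at an unadjusted edgeR p under 0.05, 2 with DESeq2, Arl8b and Madd, and 1 with limma-voom, Madd). Spag9, a scaffold that links kinesin-1 to cargo, was at 425.9, 422.3 and 447.3 CPM against 392.1 and 418.1 CPM. Of 26 genes of intraflagellar transport, the cargo trains of kinesin-2 and dynein-2, Ift74 fell from 50.8, 54.8 and 60.8 CPM to 33.3 and 39.7 CPM (log2 -0.60, SE 0.12, edgeR adjusted p = 0.020). The other 25 did not pass, and the median of the list was 0.00. Without control replicate 2, 0 of the 154 genes passed edgeR's test (33 at an unadjusted p under 0.05, against 43 in the fit to all libraries). In that fit 0.317% of all genes passed. Without control replicate 3, 3 of the 154 rose and 0 fell, while 1.98% of all genes passed. Without control replicate 1, 14 rose and 7 fell, while 16.0% of all genes passed.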

How the data were processed

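RNA of embryonic mouse lenses was sequenced in 3 control and 2 knockout libraries of pooled lenses, and 1 table of raw counts per gene symbol was analysed. The counts were made by the authors, and the submitters' processing notes name the build mm10, HTSeq 0.6.1 and TopHat2 2.0.13, and also Trim Galore 0.3.7, DESeq2 and Cufflinks 2.2.1, with no role or order. The strand setting of the counting was not given in the sources used here. Columns were matched to samples by their names.

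Genes with low counts were removed with edgeR's filterByExpr (minimum count 10), which left 12035 of 12370 symbols. Of those removed, 61 had 0 counts in every library. Counts were scaled by TMM and tested with edgeR 4.0.16 (quasi-likelihood, R 4.3.3), with Benjamini-Hochberg adjustment over all tested genes and a threshold of 0.05. The biological coefficient of variation was 14.1%. Standard errors were taken from the log2 fold change and the F statistic. The script was tested on simulated data. The 13 alternatives used other scalings, DESeq2 1.42.0, limma 3.58.1 (voom), no filter, a loess trend on transcript length and GC content per library (98.1% of tested genes had both), a replicate block, or 1 library fewer. Transcript lengths, GC content, positions and shared windows of 50 bases come from GENCODE vM21 (GRCm38).

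The genes and lists were chosen with earlier results of these data known. Values in every library are given for genes past the threshold, for the 2 most abundant genes of each role and for the uncalled gene of each role with the largest fold change at a mean of at least 5 CPM. Of each further list up to 4 called genes are named, or the 2 most abundant where none was called, and a gene that this rule would name is not reported here. Genes named beyond this rule were chosen after their values were seen.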

Additional observations from a re-analysis of the deposited data

How the results depend on the processing

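The 66 genes had from 15 to 17592 counts in a library, and the shares of depth and of the number of pools in what could be called were not tested. Leaving out 1 library moved the number of the 66 genes that rose from 8 to between 0 and 8, and of those that fell from 7 to between 0 and 5. For all genes tested the ranges were 21 to 1426 (960 with all libraries) and 17 to 1291 (1024), and for the 154 genes of the further lists 0 to 14 (9) and 0 to 15 (9). A fit without knockout replicate 1 or 2 leaves a single knockout library, which is then assumed to vary like the controls.

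Library totals as the only scaling gave 1511 higher and 637 lower genes over all, and 18 higher genes in the further lists. It moved the median log2 fold change of all genes to 0.09. After GC and length correction, 5 of the 66 genes were higher, and 433 of all genes were higher. Signs were compared between settings for the genes picked by the rule above, not for all 66 genes. Among those picked, the log2 fold change reversed after GC and length correction for Dctn1 (-0.21), Dync1h1 (-0.23), Dync2li1 (0.13), Dynll1 (0.09), Kif13a (-0.01), Kif15 (0.15), Kif1c (-0.04), Kif2a (0.14) and Kif7 (-0.09). With library totals it reversed for Dync1li2 (0.05), Dynll1 (0.03), Kif15 (0.07), Kif1b (0.06), Tubb5 (0.02) and Tubg1 (0.04). Leaving out 1 library gave values on both sides of 0 for Dync1li2 (-0.08 to 0.01), Dync2li1 (-0.32 to 0.03), Dynll1 (-0.15 to 0.06), Kif15 (-0.07 to 0.05), Kif1b (-0.06 to 0.05), Kif22 (-0.06 to 0.26), Kif6 (-0.02 to 0.27) and Tubg1 (-0.15 to 0.06). Of these genes Kif1c alone was called with all libraries. The causes were not tested.

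The labels give no shared source for same-numbered libraries, and their deviations from the group means correlated by -0.07 and 0.043 for numbers 1 and 2. With 2 knockout libraries these deviations mirror each other, so this check cannot show whether the numbers pair the libraries, and they were not treated as pairs. A replicate block, fitted without control replicate 3, gave 7 higher and 7 lower of the 66 genes, and 927 higher and 835 lower genes over all. Kif21b then did not pass (log2 fold change 0.42, edgeR adjusted p = 0.082). The replicate block with the length and GC trends removed gave 2 higher and 5 lower of the 66 genes, 384 and 548 over all, and 5 and 3 in the further lists. Among the genes picked by the rule, it reversed the log2 fold change of Dctn1 (-0.20), Dync1h1 (-0.22), Dync2li1 (0.14), Dynll1 (0.08), Kif13a (-0.03), Kif15 (0.09), Kif18b (-0.03), Kif1c (-0.00), Kif2a (0.11), Kif3a (0.00), Kif3b (-0.02) and Kif7 (-0.08).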
